A study of Mus musculus with 24 samples.

Results

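The multidomain members of the Bcl2 family were followed in splenic B cells and in the remaining, non-B cells of the spleen, before and after ionising radiation (IR), with and without p53. They were taken by family membership as a list of 10 genes among the 21671 in the files, and all 10 were found. The list uses no expression threshold but was chosen with earlier results of these data known. The effectors are Bax, Bak1 and Bok, and the guardians are Bcl2, Bcl2l1 (Bcl-xL), Bcl2l2 (Bcl-w), Mcl1 and the 3 A1 genes Bcl2a1a, Bcl2a1b and Bcl2a1d. RNA-seq libraries were made from C57/Bl6 mice of 8 weeks of age, either Trp53+/+ or Trp53-/-, mock-treated (unstressed) or collected 4 h after whole-body IR at 7 Gy. Each treatment of a cell type had 4 Trp53+/+ and 2 Trp53-/- samples, 24 in all. B cells were those retained by B220 beads, and the non-B cells were the cells that passed through the column after red cells had been lysed. The study's methods give the number of mice per condition as 4 for Trp53+/+ and 2 for Trp53-/-, as many as there are samples. The labels do not say that each sample is 1 mouse, so the p-values measure the spread between these samples, and whether B and non-B samples of 1 number came from the same mouse is not given in the sources used here. In bulk RNA of this kind, fewer cells of a type and less RNA per cell cannot be told apart.

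As background, the mitochondrial route to apoptosis is decided at the outer mitochondrial membrane. Activated Bax and Bak oligomerise there and open it, which releases cytochrome c and leads to caspase activation. The guardians hold Bax and Bak in check, and the BH3-only proteins, several of which are made on demand after DNA damage, bind the guardians and the effectors through a single short helix. Mature B lymphocytes are known to depend on Mcl1, Bcl2 and, after activation, A1, and Bax is a known p53 target gene.

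The values are RPKM, read numbers divided by the length of the gene and by the exon reads of the library, so that levels may be compared between genes. The estimated depth was 4.70 to 10.9 M (mega) reads per sample, and the irradiated Trp53+/+ B cells, at 4.70 to 7.63 M, included the shallowest. The labels were checked first. Trp53 itself had an RPKM of 43.4 to 49.5 in the 8 unstressed Trp53+/+ samples and of 21.6 to 25.0 in the 4 unstressed Trp53-/- samples, lower but not 0. After IR it was 40.5 to 41.8 in Trp53-/- and 58.7 to 65.8 in Trp53+/+ B cells, whereas the non-B samples overlapped, at 34.6 to 36.4 and 35.0 to 38.6, so that Trp53 RPKM did not separate the genotypes there. Which part of the gene was deleted is not given in the sources used here. Cdkn1a, the p53-induced cell cycle inhibitor, reached 69.6 to 97.8 in irradiated Trp53+/+ cells and at most 2.63 in any Trp53-/- sample. The summed RPKM of 8 B cell markers was 773 to 1053 in B cells, and 199 to 523 in the non-B fraction, which still held B cell RNA. The share of 1443 olfactory and vomeronasal receptor genes, silent in blood cells, with an RPKM above 0 was 5.41% to 9.29% in unstressed samples, 7.00% to 51.4% in irradiated Trp53+/+ samples and 6.86% to 13.1% in irradiated Trp53-/- samples. Irradiated Trp53+/+ B replicates 1 and 2, at 36.7% and 47.3%, were left out together in an alternative fit. Irradiated Trp53+/+ non-B replicates 1, 3 and 4, at 24.7%, 51.4% and 35.8%, were not left out as a set.

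The sequence features of 2 sets of members bear on how their values can be read. Bax is transcribed from the minus strand of chromosome 7 (chr7:52717065-52722268 in mm9). Of the 10 members, all had a RefSeq promoter window, 250 bases before to 50 after a start site in GRCm38.p6, and some had several, giving 12 windows. A match to the p53 consensus decamer, searched on both strands, was found in 1 of these windows, that of Bax, and in 8.36% of all 32851 windows. It is shown because Bax was the member with the largest change. The stretch before the start (chr7:45466899-45467148, minus strand, GRCm38.p6) has the matching letters, which begin 201 bases before the start, in capitals.
Bax promoter: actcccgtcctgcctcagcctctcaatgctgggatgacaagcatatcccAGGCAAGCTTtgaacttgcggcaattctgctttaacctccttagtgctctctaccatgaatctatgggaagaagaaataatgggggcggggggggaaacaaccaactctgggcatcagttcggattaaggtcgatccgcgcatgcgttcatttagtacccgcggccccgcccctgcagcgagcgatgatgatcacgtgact
A pair of such decamers separated by 0 to 13 bases was in none of the member windows and in 0.0731% of all windows. The consensus of NF-kB, a factor known to act on A1 and Bcl2l1, was in 1 member window, a window of Bcl2l1, and in 8.46% of all windows. These are matches of letters only, and sequence outside these windows was not searched. The study mapped p53 binding in B and non-B cells by chromatin immunoprecipitation and sequencing, but those data were not used here.

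The 3 A1 genes lie on chromosome 9 (chr9:88618126-88626708 for Bcl2a1d, chr9:88851738-88857254 for Bcl2a1a and chr9:89094047-89102665 for Bcl2a1b, in mm9) and are near-identical copies. Their coding sequences have 519 bases, of which 7 differ between Bcl2a1a and Bcl2a1d, 6 between Bcl2a1b and Bcl2a1d, and 11 between Bcl2a1a and Bcl2a1b. The first 120 coding bases hold 7 of the 12 coding positions at which any of the genes differs, and are shown with those positions in capitals. Such positions, here and elsewhere in the transcripts, bear on which gene a read is counted for.
Bcl2a1a: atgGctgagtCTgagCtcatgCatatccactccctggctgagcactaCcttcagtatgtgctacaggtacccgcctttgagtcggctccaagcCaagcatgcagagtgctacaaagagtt
Bcl2a1b: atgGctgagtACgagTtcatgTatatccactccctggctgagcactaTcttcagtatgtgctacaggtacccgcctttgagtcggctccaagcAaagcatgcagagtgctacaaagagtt
Bcl2a1d: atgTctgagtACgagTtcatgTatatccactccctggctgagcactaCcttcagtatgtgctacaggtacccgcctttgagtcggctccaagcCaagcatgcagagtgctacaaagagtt
Of all stretches of 50 bases in the annotated transcript, 68.8% for Bcl2a1a, 57.4% for Bcl2a1b and 84.0% for Bcl2a1d also occur in another A1 gene. The study's methods list the options of the read counting program but do not say how reads that match several of these genes were treated. If such reads were left out, the RPKM of the A1 genes would be understated. Their levels and the split between them are therefore uncertain.

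The members spanned a wide range of levels. Mcl1 was the most abundant guardian, at 98.1 to 131 RPKM over the 24 samples, and the highest member in every group but the irradiated Trp53+/+ B cells, where Bax, at 107 to 118, overlapped it at 107 to 116. Mcl1 made up 41.5% to 54.3% of the summed RPKM of the guardians in each sample. It ranked between the 25th and the 159th gene from the top in every sample. The highest RPKM of any gene in a sample was only 157 to 307, in files from which duplicated reads had been removed. Whether this narrowed the values of high genes, such as Mcl1 and, in irradiated Trp53+/+ B cells, Bax, was not tested. The ratios given below use the same values. Bcl2, at 29.3 to 49.5 RPKM, Bak1, at 23.9 to 45.2, and Bcl2a1b, at 20.9 to 61.3, came next. Bcl2l1 (6.07 to 27.3), Bcl2a1d (7.72 to 24.2), Bcl2a1a (4.98 to 14.9) and Bcl2l2 (4.05 to 11.05) were lower. Bok, an effector that is known to act without the guardians' restraint, did not exceed 1.05 RPKM, which stands for an estimated 13.8 reads at most, and was listed at 0 in 1 unstressed Trp53-/- non-B sample. It failed the expression filter, an RPKM above 1 in at least 1 Trp53+/+ sample of the fit, while the other 9 members passed it in every fit. Bax ran from 23.1 to 118 RPKM, the widest range in RPKM of the 10.

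**Figure D1:**
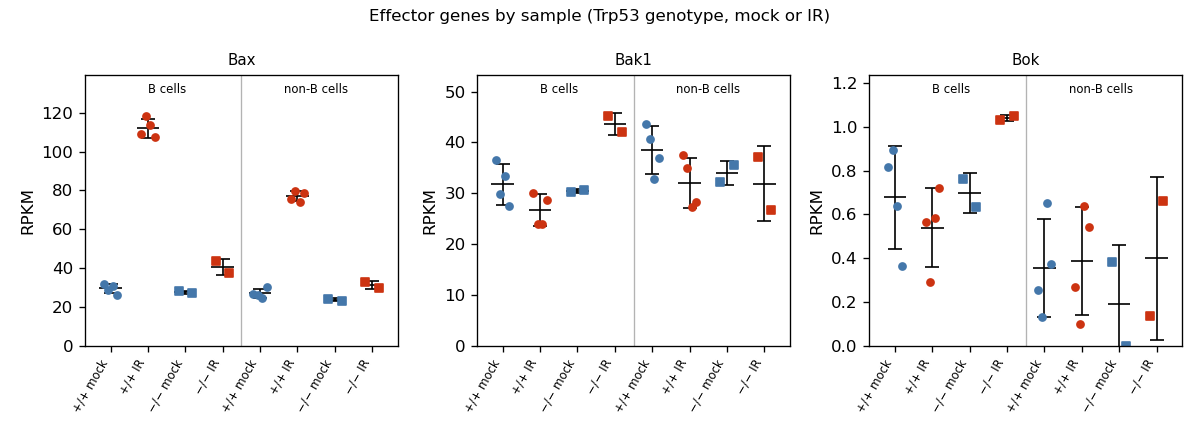
RPKM of the 3 effectors in each of the 24 samples, by Trp53 genotype and treatment, with B cells on the left and non-B cells on the right of each panel; points are samples (circles Trp53+/+, squares Trp53-/-; blue mock, red IR), bars the mean ± SD. Bax stands at 107 to 118 in irradiated Trp53+/+ B cells and at 73.9 to 79.9 in irradiated Trp53+/+ non-B cells, above every other sample, Bak1 is highest in irradiated Trp53-/- B cells, and Bok stays at or below 1.05.

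The first comparison asked what IR did to the members in Trp53+/+ B cells. Bax rose, together with the guardians Bcl2l1, Bcl2a1b and Bcl2a1d, while the guardian Bcl2l2 fell. The remaining tested members, Bak1, Bcl2, Mcl1 and Bcl2a1a, did not pass the test. A call needed an adjusted p under 0.05 with a log2 fold change beyond 0.58 in either direction. By this rule 5 of the 9 tested members were called, 4 upward and 1 downward. Of all 13821 genes tested, 24.7% were called, 12.5% upward and 12.2% downward. The count holds Bcl2a1b and Bcl2a1d as separate members, although they are near-identical copies and the split of reads between them is uncertain. The median log2 fold change was 0.18 over the members and 0.01 over all genes. All p-values are those of limma, adjusted over all genes in a fit. Where samples of 2 groups are said not to overlap, the share of all genes with no overlap is the background, which was 46.2% for IR in Trp53+/+ B cells, 22.1% in Trp53+/+ non-B cells and 71.5% in Trp53-/- B cells, and between Trp53+/+ B and non-B cells 41.7% unstressed and 51.3% after IR.

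Bax, the effector that moves from the cytosol to mitochondria, had an RPKM of 31.9, 28.7, 30.9 and 26.3 in the unstressed Trp53+/+ B samples and of 109, 118, 114 and 107 in the irradiated ones. The groups were far apart, and the replicates of each were close. The log2 fold change was 1.91 (SE 0.07, adjusted p = 9.1e-10). It was called in all 25 alternative fits of this comparison, between 1.79 and 1.95. In non-B cells Bax went from 26.3, 26.1, 24.6 and 30.4 to 75.7, 79.9, 73.9 and 78.8, again with no overlap, a log2 fold change of 1.51 (SE 0.07, adjusted p = 1.9e-07). It was the only member called there, 1 of 9, which is near the 9.85% of all 14018 genes.

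Without p53, Bax still had a higher RPKM after IR, but by far less. Its RPKM in Trp53-/- B cells went from 27.9 and 26.8 to 43.6 and 37.7, a log2 fold change of 0.56 (SE 0.10, adjusted p = 0.00082) that passed the p threshold and lay just under the fold threshold. In Trp53-/- non-B cells it went from 24.1 and 23.1 to 32.7 and 29.8, a log2 fold change of 0.39 (SE 0.10, adjusted p = 0.10) that was not called. The genotypes were compared directly by the interaction of genotype and IR, called at an adjusted p under 0.05. In B cells the Bax response was larger in Trp53+/+ cells by 1.36 on the log2 scale (SE 0.12, adjusted p = 1.3e-05), and in non-B cells by 1.11 (SE 0.12, adjusted p = 0.00056). Of all genes, these interactions called 18.8% in B cells, against 7.35% in the non-B fit.

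Bax also differed between cell types. In unstressed Trp53+/+ samples its RPKM overlapped, with 26.3 to 31.9 in B cells against 24.6 to 30.4 in non-B cells. After IR every B sample was above every non-B sample, with a log2 difference of 0.54 (SE 0.07, adjusted p = 9.1e-06) under the fold threshold. The response itself was larger in B cells by 0.40 (SE 0.10, adjusted p = 0.0079), where this interaction called 28.0% of all genes. That difference depended on the scaling, since it was 0.12 (adjusted p = 0.51) after quantile normalization, and it was 0.34 (adjusted p = 0.070) with replicates 1 and 2 alone and 0.47 (adjusted p = 0.077) with replicates 3 and 4 alone. Ordered by mean RPKM, Bax was highest in irradiated Trp53+/+ B cells (112 ± 4.99, SD, n = 4), then in irradiated Trp53+/+ non-B cells (77.1 ± 2.75, SD, n = 4), then in irradiated Trp53-/- B cells (40.6 ± 4.19, SD, n = 2), each group clear of the next. Irradiated Trp53-/- non-B cells and unstressed Trp53+/+ B cells, next in the order, overlapped.

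Bak1, the effector that sits in the mitochondrial outer membrane, did not follow Bax. In Trp53+/+ B cells its RPKM was 36.6, 29.8, 33.3 and 27.4 unstressed and 30.1, 23.9, 23.95 and 28.7 after IR. The groups overlapped, and the log2 fold change of -0.25 (95% interval -0.46 to -0.03) had an adjusted p of 0.051. Bak1 went the other way in Trp53-/- B cells, from 30.2 and 30.7 to 45.2 and 42.1. Its log2 fold change there was 0.51 (SE 0.14, adjusted p = 0.011), under the fold threshold. The difference between the genotypes was -0.76 (SE 0.17, adjusted p = 0.0092), so that the responses of Bak1 and Bax to IR differed with genotype in opposite directions in B cells. Without replicate 1 of the irradiated Trp53-/- B cells the adjusted p for Bak1 was 0.050, just past the threshold. In non-B cells Bak1 had a log2 fold change of -0.27 (95% interval -0.56 to 0.03) in Trp53+/+ cells and of -0.11 (95% interval -0.52 to 0.31) in Trp53-/- cells, neither called. On the opposite strand, the gene Ggnbp1 shares 357 of the 2407 exon bases of Bak1 and was listed at 0 in every sample.

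Inside a sample, the RPKM of Bax was below that of Bak1 before IR in Trp53+/+ cells and above it after IR. The ratio of Bax to Bak1 RPKM was 0.93 ± 0.04 (SD, n = 4) in unstressed Trp53+/+ B cells and 4.26 ± 0.69 (SD, n = 4) after IR. In Trp53-/- B cells, where both had a higher RPKM after IR, the ratio was 0.90 ± 0.04 and 0.93 ± 0.05 (SD, n = 2 each). In non-B cells it was 0.70 ± 0.10 before and 2.45 ± 0.36 after IR in Trp53+/+ samples (SD, n = 4 each), and 0.70 ± 0.07 and 1.00 ± 0.17 in Trp53-/- samples (SD, n = 2 each). Bax made up 78.0% to 83.0% of the summed RPKM of the effectors in irradiated Trp53+/+ B cells, and 46.1% to 48.6% in the same cells unstressed.

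Bok was too low for a test in the main fits. With no expression filter its log2 fold change after IR was -0.18 in Trp53+/+ B cells (adjusted p = 0.47) and 0.36 in Trp53-/- B cells (adjusted p = 0.44). At an estimated 0 to 13.8 reads per sample, a change of this size was not detectable at this depth.

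**Figure D2:**
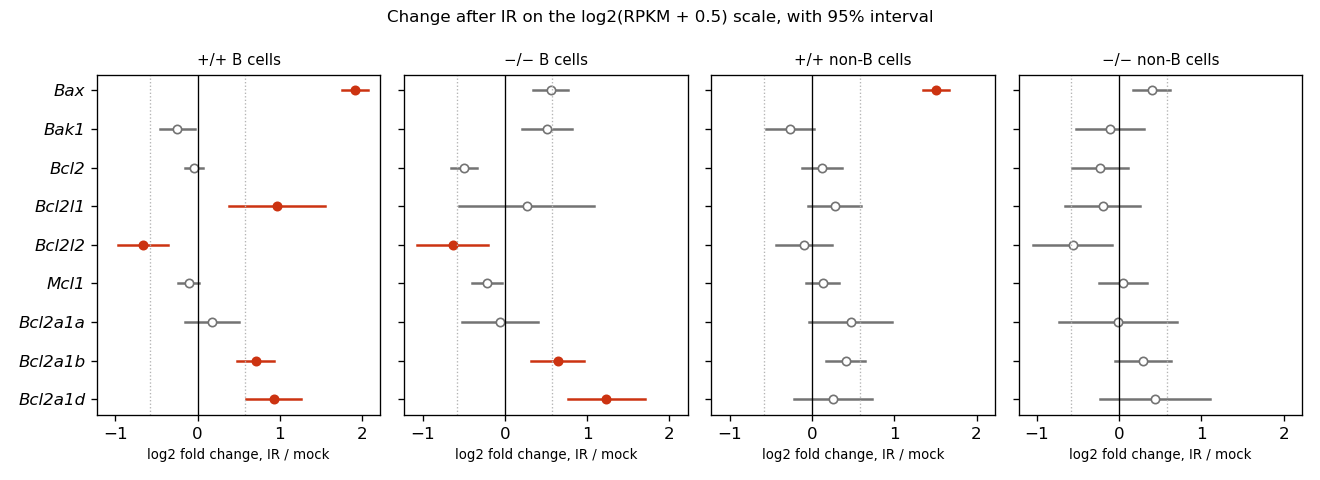
Log2 fold change of IR over mock for the 9 members tested, on the log2(RPKM + 0.5) scale, with its 95% interval, in Trp53+/+ and Trp53-/- B and non-B cells; filled red points were called (adjusted p under 0.05 and beyond the dotted lines at 0.58 in either direction), open grey points were not. The Bax change is 1.91 and 1.51 in Trp53+/+ B and non-B cells and 0.56 and 0.39 in the Trp53-/- cells, whereas Bcl2a1b, Bcl2a1d and Bcl2l2 have similar positions in B cells of both genotypes.

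Among the guardians, the A1 genes Bcl2a1b and Bcl2a1d rose in B cells of both genotypes, and Bcl2a1a did not pass the test in either. A1 is a short-lived guardian of lymphocytes and myeloid cells. Bcl2a1b had an RPKM of 38.0, 36.5, 40.6 and 29.0 in unstressed Trp53+/+ B cells and of 59.7, 61.3, 57.9 and 55.7 after IR, a log2 fold change of 0.70 (SE 0.10, adjusted p = 0.00012). Without p53 it went from 30.8 and 37.8 to 59.5 and 48.4, a log2 fold change of 0.64 (SE 0.15, adjusted p = 0.0040). Neither pair of groups overlapped. The genotype difference was 0.06 (95% interval -0.33 to 0.45, adjusted p = 0.86), which is wide enough to hold a difference of either sign. The Trp53-/- call was lost without replicate 1 of the unstressed samples (0.50, adjusted p = 0.053) and without replicate 1 of the irradiated ones (0.50, adjusted p = 0.052).

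Bcl2a1d had the same direction and a larger change. Its RPKM was 11.97, 9.12, 12.5 and 7.72 in unstressed Trp53+/+ B cells and 16.3, 19.9, 23.7 and 19.6 after IR, a log2 fold change of 0.92 (SE 0.15, adjusted p = 0.00031). In the Trp53-/- samples it went from 8.36 and 10.5 to 24.2 and 21.4, a log2 fold change of 1.23 (SE 0.22, adjusted p = 0.00071). The groups did not overlap in either genotype, and both changes were called in all 25 alternative fits. The genotype difference was -0.31 (95% interval -0.89 to 0.27, adjusted p = 0.46).

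Bcl2a1a was not called in any of these comparisons. Its log2 fold change was 0.18 (95% interval -0.15 to 0.50) in Trp53+/+ B cells and -0.06 (95% interval -0.52 to 0.40) in Trp53-/- B cells, with 5.63 to 6.96 RPKM before and 6.91 to 8.11 after IR in the former. The sum over the 3 genes was 42.4 to 60.1 RPKM in unstressed and 82.4 to 89.5 in irradiated Trp53+/+ B cells, and 45.2 to 56.1 and 78.4 to 88.7 in the Trp53-/- cells. The sums did not overlap between treatments in either genotype. Mthfs, a folate pathway enzyme gene whose annotated exons cover 401 of the 817 exon bases of Bcl2a1b on the same strand, had an RPKM of 14.0 to 15.8 before and 19.0 to 23.7 after IR in Trp53+/+ B cells. Its part in the Bcl2a1b values was not tested.

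In non-B cells the A1 genes were not called after IR. Bcl2a1b had 26.6, 26.0, 22.4 and 20.9 RPKM in unstressed Trp53+/+ samples and 26.9, 36.7, 30.1 and 34.5 after IR, which did not overlap, and a log2 fold change of 0.41 (SE 0.11, adjusted p = 0.027) under the fold threshold. In unstressed Trp53+/+ samples Bcl2a1b was higher in B than in non-B cells by 0.57 (SE 0.11, adjusted p = 0.00053), just under the fold threshold. After IR it was higher by 0.87 (SE 0.11, adjusted p = 4.6e-06), and Bcl2a1d by 0.74 (SE 0.20, adjusted p = 0.0049). These were the 2 of 9 members called between irradiated B and non-B cells, where 35.6% of all 14598 genes were called. The difference in the response between the cell types was not called for Bcl2a1b (0.30, adjusted p = 0.17) or for Bcl2a1d (0.67, adjusted p = 0.094).

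**Figure D3:**
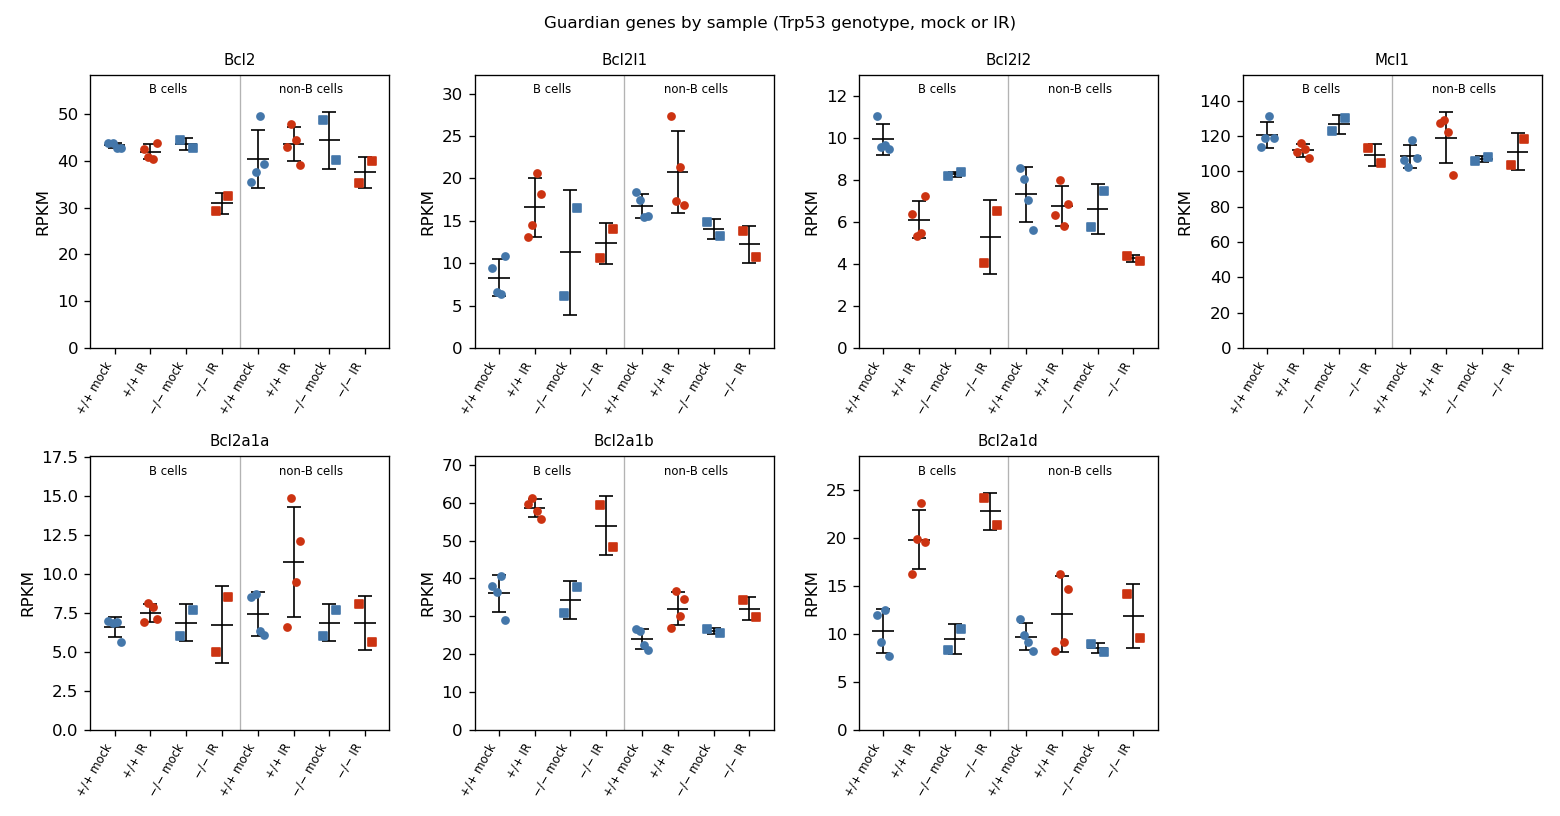
RPKM of the 7 guardians in each of the 24 samples, by Trp53 genotype and treatment, with B cells on the left and non-B cells on the right of each panel; points are samples (circles Trp53+/+, squares Trp53-/-; blue mock, red IR), bars the mean ± SD, and each panel has its own axis from 0. Bcl2a1b and Bcl2a1d are higher in irradiated than in unstressed B cells of both genotypes, Bcl2 is lowest in irradiated Trp53-/- B cells at 29.3 and 32.5, and the unstressed Trp53-/- B samples of Bcl2l1 lie apart at 6.07 and 16.5.

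Bcl2l1, which encodes the guardian Bcl-xL, was called in Trp53+/+ B cells with a wider error. Its RPKM was 9.38, 6.63, 6.32 and 10.9 unstressed and 13.04, 14.5, 20.6 and 18.1 after IR. The groups did not overlap, and the log2 fold change was 0.97 (SE 0.27, adjusted p = 0.0093). The call was lost with replicates 1 and 2 alone (0.76, adjusted p = 0.15) and with replicates 3 and 4 alone (1.17, adjusted p = 0.057). The unstressed Trp53-/- B samples lay far apart, at 6.07 and 16.5, around the irradiated ones at 10.6 and 14.0. The log2 fold change there was 0.27 (95% interval -0.56 to 1.09, adjusted p = 0.62), and without the sample at 16.5 it was 0.95 (adjusted p = 0.049). The genotype difference of 0.70 (95% interval -0.31 to 1.71, adjusted p = 0.33) was not called.

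Unstressed Bcl2l1 was lower in B than in non-B cells. The non-B samples had 18.4, 17.4, 15.5 and 15.6 RPKM, all above the B samples, a log2 difference of -0.999 (SE 0.18, adjusted p = 0.00034). It was the only member called between the unstressed cell types, 1 of 9, where 24.6% of all genes were called. In irradiated non-B cells Bcl2l1 had 27.3, 17.3, 21.3 and 16.9 RPKM, a log2 fold change of 0.28 (95% interval -0.05 to 0.60, adjusted p = 0.21).

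Bcl-xL is known to be abundant in red cell precursors, so erythroid markers were set beside it. Of the 8 markers listed, 7 were in the files. Their summed RPKM was 124 to 304 in unstressed Trp53+/+ non-B cells and 46.5 to 113 in the B cells. After IR it was 23.9 to 70.6 in Trp53+/+ non-B cells, where Car1 was at 0 in at least 1 sample, and 17.3 to 29.6 in the B cells. Bcl2l1 was thus higher in irradiated B cells while the markers were lower. In the unstressed Trp53-/- B cells, the sample with a Bcl2l1 RPKM of 6.07 had a marker sum of 33.3, and that with 16.5 had 164. Unstressed Trp53+/+ B replicates 1 to 4 had marker sums of 103, 54.4, 46.5 and 113, beside Bcl2l1 at 9.38, 6.63, 6.32 and 10.9. Single markers did not all follow the sum. Klf1 was at 9.32, 4.59, 4.01 and 1.49 RPKM in these replicates and Car1 at 17.3, 6.84, 12.5 and 4.59, both lowest in replicate 4. The other markers are not given singly here. Unstressed Trp53+/+ non-B replicates 1 to 4 had sums of 304, 288, 126 and 124, beside Bcl2l1 at 18.4, 17.4, 15.5 and 15.6. The order was the opposite in unstressed Trp53-/- non-B cells, with sums of 62.9 and 224 beside Bcl2l1 at 14.9 and 13.2. Irradiated Trp53+/+ B replicates 3 and 4 had higher Bcl2l1 than 1 and 2 and lower sums, at 17.3 and 18.9 against 24.8 and 29.6. The part of red cell precursors in the Bcl2l1 differences was not tested.

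Bcl2l2, the guardian Bcl-w, was the member that fell. In Trp53+/+ B cells its RPKM went from 11.05, 9.58, 9.68 and 9.48 to 6.38, 5.32, 5.51 and 7.26, with no overlap and a log2 fold change of -0.67 (SE 0.14, adjusted p = 0.0017). The call was lost with replicates 3 and 4 alone (-0.56, adjusted p = 0.079). Its RPKM in Trp53-/- B cells went from 8.20 and 8.38 to 4.05 and 6.55, a log2 fold change of -0.63 (SE 0.20, adjusted p = 0.022). That call was lost without either unstressed sample, and without replicate 1 of the irradiated samples the value was -0.32 (adjusted p = 0.24). The genotype difference was -0.03 (95% interval -0.56 to 0.50, adjusted p = 0.95).

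In Trp53+/+ non-B cells Bcl2l2 had 8.58, 8.06, 7.05 and 5.62 RPKM unstressed and 6.33, 8.03, 5.84 and 6.88 after IR. These overlapped, with a log2 fold change of -0.10 (95% interval -0.44 to 0.24, adjusted p = 0.69). The response was lower in B than in non-B cells by -0.57 (SE 0.20, adjusted p = 0.041), a difference called in only 13 of its 29 alternative fits. In Trp53-/- non-B cells the log2 fold change of -0.57 had an adjusted p of 0.23. On the annotation, Gm20521 shares 594 of the 4462 exon bases of Bcl2l2 on the same strand.

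The near-identical Bcl2a1b and Bcl2a1d were again counted as separate members. With them and Bcl2l2, 3 of the 9 members were called in irradiated Trp53-/- B cells, where 24.3% of all genes were called. These cells share no sample with the Trp53+/+ B cells, but both comparisons come from the same fit and share its estimate of the spread of each gene. In Trp53-/- non-B cells none of the 9 was called by limma, where 0.442% of all genes were called, and at an unadjusted p under 0.05 Bax and Bcl2l2 passed.

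Bcl2, the founding guardian, had overlapping values in Trp53+/+ B cells and lower ones after IR in Trp53-/- B cells. In the former it had 43.7, 43.9, 42.8 and 42.6 RPKM unstressed and 42.5, 40.9, 40.5 and 43.9 after IR, with a log2 fold change of -0.05 (95% interval -0.16 to 0.07, adjusted p = 0.48). In the latter it went from 44.5 and 42.7 to 29.3 and 32.5, clear of each other. That log2 fold change of -0.49 (SE 0.07, adjusted p = 0.00021) lay under the fold threshold, and after quantile normalization it was -0.63 and called. The genotype difference was 0.45 (SE 0.09, adjusted p = 0.0049) and was called in all 24 alternative fits.

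In non-B cells Bcl2 varied more among replicates, from 35.4 to 49.5 RPKM in unstressed Trp53+/+ samples. Its log2 fold change after IR was 0.12 (95% interval -0.12 to 0.36) in Trp53+/+ and -0.24 (95% interval -0.58 to 0.11) in Trp53-/- cells. The genotype difference of 0.35 (95% interval -0.07 to 0.77, adjusted p = 0.27) was not called. A non-coding gene, D630008O14Rik, overlaps 558 of the 7191 exon bases of Bcl2 on the other strand, and the library kit does not mark strand.

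Mcl1, a guardian whose protein turns over within minutes to hours, was not called in any comparison. In Trp53+/+ B cells its RPKM was 114, 119, 131 and 119 unstressed and 111, 116, 113 and 107 after IR, which overlapped. The log2 fold change was -0.11 (95% interval -0.24 to 0.02, adjusted p = 0.15). In Trp53-/- B cells it had 123 and 131 before and 114 and 105 after IR, a log2 fold change of -0.22 (95% interval -0.40 to -0.03, adjusted p = 0.062). The intervals in both genotypes of non-B cells, -0.08 to 0.33 and -0.24 to 0.34, included 0.

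Before IR, limma detected no difference between the genotypes in any member. None of the 9 was called by limma in unstressed Trp53-/- against Trp53+/+ B or non-B cells, and none had an unadjusted p under 0.05. Of all genes, 0.0506% were called in the B cell fit and 0.0428% in the non-B fit. For Bax the log2 difference was -0.10 (95% interval -0.29 to 0.09) in B cells and -0.18 (95% interval -0.37 to 0.02) in non-B cells. With 2 Trp53-/- samples the widest interval, that of Bcl2l1 in B cells, ran from -0.41 to 1.01.

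The sums over effectors and guardians show these changes inside each sample. The guardians in Trp53+/+ B cells had 3.39 to 4.15 times the summed RPKM of the effectors before IR and 1.84 to 1.95 times after it. In Trp53-/- B cells the ratio was 3.85 to 4.37 before and 2.74 to 2.92 after IR. In Trp53+/+ non-B cells it was 3.00 to 3.92 before and 2.06 to 2.38 after IR, and in Trp53-/- non-B cells it was 3.59 to 3.82 and 3.06 to 3.83. The treatments did not overlap except in the Trp53-/- non-B cells. The summed RPKM of the guardians was not lower after IR, at 224 to 250 before and 256 to 269 after IR in Trp53+/+ B cells, whereas that of the effectors was 54.1 to 69.4 before and 137 to 142 after. These ratios are of mRNA and have no test, since the members were chosen as a list.

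**Figure D4:**
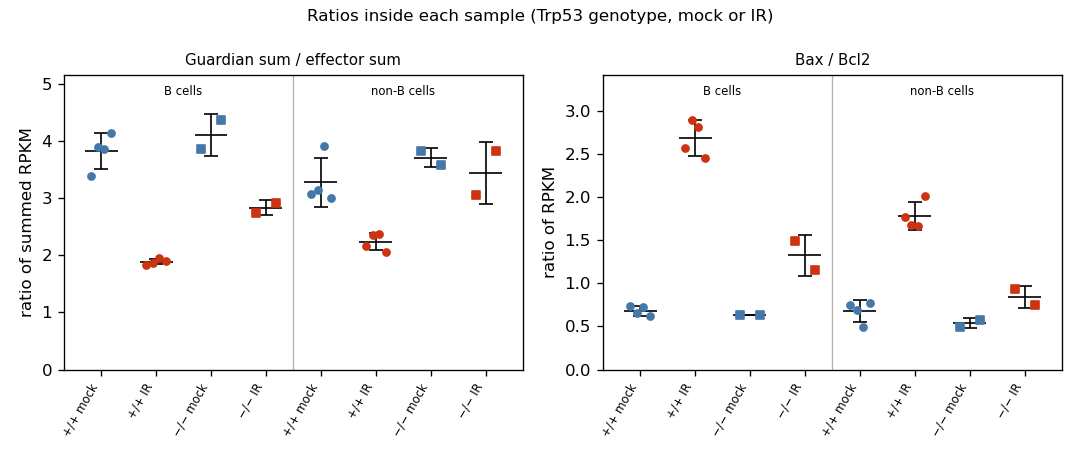
Ratio of the summed RPKM of the 7 guardians to that of the 3 effectors (left) and ratio of Bax to Bcl2 RPKM (right) in each sample, by Trp53 genotype and treatment; points are samples (circles Trp53+/+, squares Trp53-/-; blue mock, red IR), bars the mean ± SD. The guardian to effector ratio is 1.84 to 1.95 in irradiated Trp53+/+ B cells, the lowest of the 8 groups, and the Bax to Bcl2 ratio is 2.45 to 2.89 there, the highest.

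The ratio of Bax to Bcl2, often used as a single measure of this balance, was 0.62 to 0.73 in unstressed and 2.45 to 2.89 in irradiated Trp53+/+ B cells. It was 0.63 in both unstressed Trp53-/- B samples and 1.16 and 1.49 after IR, where Bcl2 was lower as well as Bax higher. In Trp53+/+ non-B cells it was 0.50 to 0.77 before and 1.66 to 2.01 after IR.

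The other genes of the pathway were counted by list. Among the BH3-only genes, which set the guardians and effectors in motion, 7 of 8 were tested. After IR of Trp53+/+ B cells Bbc3 (Puma), Pmaip1 (Noxa) and Bcl2l11 (Bim) rose and Bmf fell. Bbc3 went from 3.38 ± 0.36 to 78.7 ± 1.75 RPKM (SD, n = 4 each), or 4.36 on the log2 scale (SE 0.11, adjusted p = 5.6e-11), and Pmaip1 from 12.3 ± 0.30 to 67.7 ± 3.55 RPKM (SD, n = 4 each), or 2.41 on that scale (SE 0.08, adjusted p = 3.5e-10). In Trp53+/+ non-B cells the same 3 rose, Bbc3 by 2.42 and Pmaip1 by 1.25 on the log2 scale. In Trp53-/- B cells Bid rose by 0.85 and Bmf fell by 0.85, and none was called in Trp53-/- non-B cells. The median log2 fold change of the list was 0.40 in Trp53+/+ B cells.

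Downstream, 11 apoptosome and release genes were all tested. Among those called after IR of Trp53+/+ B cells, Apaf1, the caspase-9 scaffold, rose, and Casp9 and Casp6 fell. Apaf1 went from 13.035 ± 0.55 to 55.7 ± 3.66 RPKM (SD, n = 4 each), or 2.05 on the log2 scale, whereas in Trp53-/- B cells it fell from 14.2 ± 0.30 to 7.36 ± 0.07 RPKM (SD, n = 2 each), and the genotype difference was 2.96 (SE 0.11, adjusted p = 1.2e-08). Casp9 fell in B cells of both genotypes, by 1.54 and 1.02 on the log2 scale. In Trp53+/+ non-B cells only Apaf1 was called, with a log2 fold change of 1.37. Of the 10 other Bcl2-like genes, 8 were tested, and Bcl2l15 rose while Bnip3 and Bnip3l fell in Trp53+/+ B cells. None of the 7 genes for outer membrane channels and mitochondrial fission, and none of the 5 for the turnover of Mcl1 and Bcl2 proteins, was called after IR in any of the 4 comparisons.

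Finally, the genes whose log2 values ran most like those of each member over the 24 samples were listed among 13062 others with a mean RPKM above 1, as a description, since samples of a group share their treatment. For Bax they were Aaas (r = 0.99), Aen (0.98) and Rnf169 (0.97). For Bcl2a1b they were Cdk5r1, Ghitm and Zfp52 (0.95 each), for Bcl2a1d Timm44, Tcam1 and Magt1 (0.92 each), and for Bcl2l2 Dhrs1 and Slc16a7 (0.91 each) and Akap7 (0.90). For Bak1 (Mfsd12, Asf1b and Nkiras2) and Bcl2 (Arhgef3, Akap13 and Calcoco1) the values lay between 0.81 and 0.86, for Bcl2l1 (Csf1, Nol4l and Id1) between 0.82 and 0.83, for Mcl1 (Arhgap30, Usf1 and Dazap2) between 0.74 and 0.82, and for Bcl2a1a (Ccdc88a, Rilp and Gpr31b) between 0.76 and 0.78. Among the members themselves the highest was that of Bcl2a1b with Bcl2a1d (0.87), genes of near-identical sequence, and the lowest that of Bak1 with Bcl2 (-0.52).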

How the data were processed

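Ribosomal RNA was removed from the RNA of B and non-B cells, and libraries were made with a kit that does not mark strand. Per the study's methods and its processing notes, bases of a quality below 20 were masked by the authors, reads were placed on mm9 by TopHat, duplicates were reduced to 1 read, and featureCounts 1.4.5 assigned reads to UCSC gene models. The deposited values are RPKM per gene and sample, with the reads on exons as library size. The authors called differential expression with DESeq2 on counts; counts were not used here.

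RPKM values were analysed as log2(RPKM + 0.5), a scale that understates changes of low genes, by linear models with a trended prior variance (limma 3.58.1, R 4.3.3). Each cell type was fitted on its 12 samples as 4 groups, and comparisons of cell types on the 16 Trp53+/+ samples. A gene was tested if at least 1 Trp53+/+ sample of the fit exceeded an RPKM of 1. P-values were adjusted by Benjamini-Hochberg over all genes of a fit, and a call needed an adjusted p under 0.05 and, except for interactions, an absolute log2 fold change above 0.58. Depth was estimated from the steps that whole reads leave in low RPKM values. Gene positions came from GENCODE on NCBIM37, the assembly that mm9 represents, and promoters from RefSeq (GRCm38.p6). Values were summarised with Python 3.11.15, numpy 2.4.6 and pandas 2.3.3 and drawn with matplotlib 3.10.9. The fits were tested on simulated data.

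Samples carry replicate numbers. In Trp53+/+ non-B cells the deviations of same-numbered unstressed and irradiated samples correlated at 0.35, 0.18, 0.26 and 0.36, all above 0.1. Of these, only unstressed samples 1 and 4 correlated best with the irradiated sample of their own number. In Trp53+/+ B cells the values were 0.02 to 0.10. Between same-numbered B and non-B samples the values were 0.39, 0.02, -0.04 and 0.24 in unstressed Trp53+/+ cells. In irradiated Trp53+/+ cells they were 0.18, -0.06, 0.12 and 0.34. Unstressed B sample 1 and irradiated B samples 1, 3 and 4 correlated best with the non-B sample of their own number. The reported fits used no pairing within or between cell types, and the replicate block was run only as an alternative. The alternatives were other pseudocounts, filters, scalings and thresholds, the replicate block, the share of receptor genes as a covariate, and left-out samples. The named genes are all members and, of each list, at most the 2 called genes with the largest change in Trp53+/+ cells of each cell type, plus any set of 5 or fewer. Some results on genes of these lists are not reported here. The members and lists were chosen with earlier results of these data known.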

Additional observations from a re-analysis of the deposited data

Results flagged for a closer look

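Of 40 groups of 4 values (10 members in 4 Trp53+/+ groups), 2 held a sample far from the others by Dixon's criterion, where chance gives about 1 in 20. In unstressed Trp53+/+ B cells, Bcl2l2 was at 11.05 RPKM in replicate 1 and at most 9.68 in the others, and Bcl2a1a was at 5.63 in replicate 4 and at least 6.84 in the others. The Bcl2l2 change after IR was called without that replicate as well.

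The remaining results differed between genotypes or cell types by an interaction test in limma. The IR response of Bax was larger in Trp53+/+ than in Trp53-/- cells by 1.36 in B cells (adjusted p = 1.3e-05) and by 1.11 in non-B cells (adjusted p = 0.00056), with all irradiated Trp53+/+ samples above all Trp53-/- samples. In B cells the response of Bak1 differed by -0.76 (adjusted p = 0.0092) and that of Bcl2 by 0.45 (adjusted p = 0.0049). Between B and non-B cells the Bax response differed by 0.40 (adjusted p = 0.0079; 0.12 and not called after quantile normalization) and that of Bcl2l2 by -0.57 (adjusted p = 0.041; called in 13 of 29 alternative fits).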

How the results depend on the processing

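Of 291 counts of called members under alternatives, 269 stayed within 1.5 times the reported count, and of 2619 log2 fold changes of single members, 33 lost a call, 33 gained it and 78 changed sign without being called either way; no called change reversed. In Trp53+/+ B cells, 3 members were called with Trp53+/+ replicates 3 and 4 alone, in place of 5. Without the fold threshold, 2 were called in Trp53+/+ non-B cells, 6 in Trp53-/- B cells and 3 between unstressed B and non-B cells, in place of 1, 3 and 1. Between unstressed B and non-B cells, 2 were called with a pseudocount of 0.1 or with replicates 3 and 4 alone, and 3 after quantile normalization or, in an alternative chosen after seeing the data, without unstressed Trp53+/+ non-B replicates 1 and 2. For the difference of the response between cell types, 1 was called at an adjusted p under 0.01, with no filter or after quantile normalization, and 0 with replicates 3 and 4 alone, in place of 2; the cause was not tested. Leaving out 1 sample in turn gave 1 to 4 called members in Trp53-/- B cells (1 without irradiated replicate 1), 1 to 2 between unstressed B and non-B cells and 1 to 3 for the cell type difference.

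The replicate block changed no call of a member: 5 were called in Trp53+/+ B cells and 1 in Trp53+/+ non-B cells, as without it. Over all genes it moved the calls in Trp53-/- non-B cells from 62 to 17, and with the numbers crossed, a pairing tried after seeing the data because same-numbered samples correlated at -0.30, they were 152. The share of receptor genes as a covariate moved the calls over all genes from 1381 to 509 in Trp53+/+ non-B cells. In Trp53+/+ B cells it moved them from 3415 to 3510. Bax was called in Trp53+/+ non-B cells in all 26 alternative fits. In Trp53+/+ B cells, unstressed sample 4 alone correlated best with the irradiated sample of its number. Depth limited Bok, at an estimated 0 to 13.8 reads per sample, and comparisons within Trp53-/- cells rest on 2 samples per group.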

Other observations

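Genes that act beside Bax and Bak1 at the mitochondrial membrane showed a genotype difference in B cells, although none was called for IR within a genotype. The IR response of Vdac1, Vdac2 and Mtch2, encoding 2 channel proteins and a receptor for the truncated form of Bid, was lower in Trp53+/+ than in Trp53-/- B cells by -0.48, -0.40 and -0.49 on the log2 scale (adjusted p = 0.0064, 0.026 and 0.025 from limma), and the other 4 genes of that list were not called. Bak1, which Vdac2 is known to bind, differed in the same direction. These genes were singled out after their values were seen, and 18.8% of all genes were called in the same comparison.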
